A study of Rattus norvegicus with 5 samples.

Results

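Gldn, the rat gene for gliomedin, was followed across 5 Affymetrix arrays of rat tendon stem/progenitor cells (rTSPCs) at passage 12. It was taken from the deposited table by its symbol in the platform annotation, which gave 1 probe set for Gldn among 10141 probe sets and 7235 named genes. The array named in the methods and the platform record behind this annotation bear different names, so that the identity of the probe set as Gldn rests on its identifier alone. The gene was chosen by its POG minus DMSO difference, the lowest on the arrays, so this difference is given as a description with no test. The cells came from Achilles tendons of young (3-month-old) rats, from colonies that had been picked and subcultured. In the POG group (2 arrays), prim-O-glucosylcimifugin, a chromone from Saposhnikovia root, was added at 20 μmol/L in each passage from 3 to 12. In the DMSO group (3 arrays), the same amount of the solvent dimethyl sulfoxide was added, and both groups shared the growth medium, the passage number and the RNA protocol. The titles give each array a biological replicate number. Nothing in the labels ties the replicates to separate cultures or animals, so a p-value here covers the spread among these arrays alone, and that spread may be technical.

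Gliomedin is a type II transmembrane protein with a collagen-like stretch and a C-terminal olfactomedin domain. It is best known from peripheral nerve, where Schwann cells place it on the microvilli that face the node of Ranvier. There its olfactomedin domain binds the axonal adhesion molecules neurofascin and NrCAM and helps to gather sodium channels, and in humans loss of the gene causes a lethal congenital contracture syndrome. The protein is shed from the membrane by furin-type and BMP1/tolloid-type proteases, and the shed form assembles in the matrix together with heparan sulfate proteoglycans.

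The DNA around the annotated start of the gene is shown because it holds its promoter. It was taken from RefSeq (build GRCr8, chr8:63575020-63575319, plus strand) and covers 250 bases before and 50 after the start. Capitals mark the matches to the motifs named next, on either strand.
Gldn: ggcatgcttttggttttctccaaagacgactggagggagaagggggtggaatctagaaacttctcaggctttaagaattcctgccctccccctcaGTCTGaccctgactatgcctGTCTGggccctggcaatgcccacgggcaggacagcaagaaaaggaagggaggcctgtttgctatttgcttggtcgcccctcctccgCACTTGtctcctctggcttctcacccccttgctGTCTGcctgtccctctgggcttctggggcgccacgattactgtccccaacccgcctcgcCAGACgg

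The window held 4 matches to CAGAC, a motif that SMAD proteins can bind, of which 3 lay on the opposite strand and read GTCTG above. At least 1 such match was present in 50.1% of the 33469 rat windows of the same length. How many windows held as many as 4 was not counted. It held 1 match to CANNTG, the E-box, which 72.1% of windows held. The 2 motifs did not overlap. No match was found to the TATA box TATAAA (14.2% of windows), CCAAT (37.5%), GGGCGG (33.1%), the AP-1 motif TGANTCA (7.33%), the TEAD motif CATTCC (14.2%) or the CArG box (1.64%). The GC content was 58.7% with 9 CpG dinucleotides, against medians of 51.7% and 7 over all windows. These matches describe letters only, since the arrays measured no factor and no promoter activity.

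The Gldn signal was high in every DMSO array and low in both POG arrays. On the deposited log2 scale it was 16.55, 16.67 and 16.87 in DMSO replicates 1, 2 and 3. In POG replicates 1 and 2 it was 7.40 and 7.65. The groups did not overlap, as in 66.8% of all probe sets (38.3% with POG above and 28.5% with POG below), and the distance between them was far wider than the distance between arrays of the same group, which spanned 0.32 with DMSO and 0.25 with POG.

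The mean was 16.70 ± 0.16 (SD, n = 3) with DMSO and 7.53 ± 0.18 (SD, n = 2) with POG. The signal therefore fell by 9.17 on the log2 scale (SE 0.18 in the fit over all probe sets), which is 577-fold if the deposited scale is read as doublings. How the deposited scale relates to amounts of RNA was not examined. The POG mean stayed above 6.17, the lower quartile of all signals, but under the medians of the 2 POG arrays, 8.48 and 8.52. On POG replicates 1 and 2, 62.6% and 59.8% of probe sets had a higher signal than Gldn, against 1.01% to 1.2% on the DMSO arrays. Without detection calls it could not be told whether any Gldn signal above background remained with POG. In bulk RNA, fewer cells that carry a transcript and less of it per cell cannot be told apart. The within-group SD of Gldn, 0.17, was close to the median of 0.20 over all probe sets, and 36.9% of probe sets had a smaller one.

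**Figure D1:**
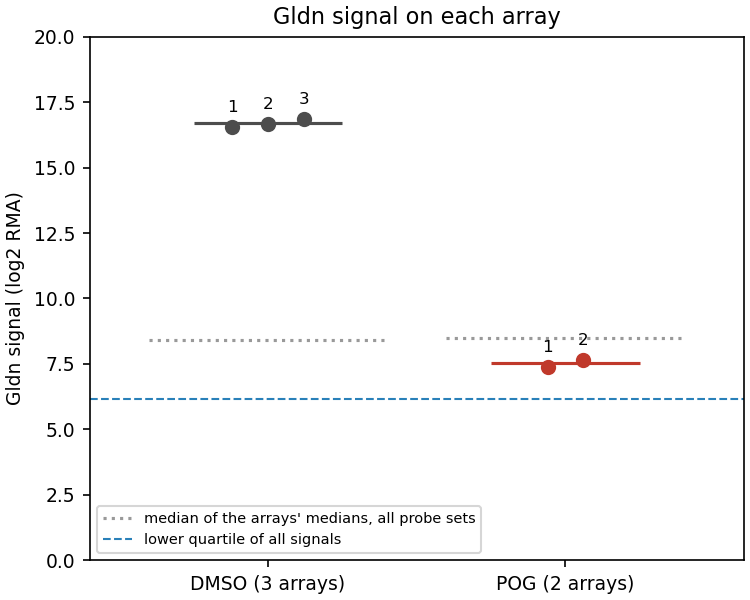
Gldn signal (log2 RMA) on each DMSO and POG array, numbered by replicate, with the group mean as a solid bar, the median of the array medians as a dotted line and the lower quartile of all signals (6.17) as a dashed line. The 3 DMSO arrays lie between 16.55 and 16.87 and the 2 POG arrays at 7.40 and 7.65.

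Set among all probe sets, Gldn was the lowest of 10141 differences. The differences had a median of 0.11 and an SD of 0.98, and the central part from the 5th to the 95th percentile ran from -1.41 to 1.39. A fall of more than 3 was seen in 101 probe sets, of more than 5 in 14, of more than 7 in 2, and of more than 8 in Gldn alone. The next fall, Olr1, was 1.99 smaller in size. On the other side, 76 probe sets rose by more than 3, 4 by more than 7, and 1, Lum, by more than 9. The size of the Gldn fall (9.17) and of the Lum rise (9.12) differed by less than the SE of either.

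**Figure D2:**
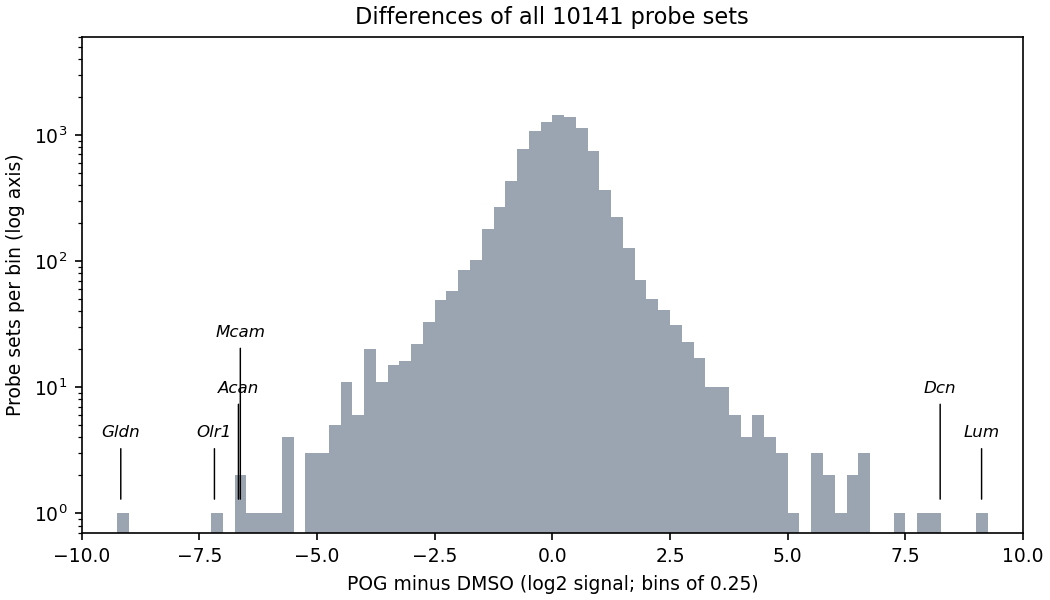
Number of probe sets (log axis) by their POG minus DMSO difference in log2 signal, in bins of 0.25, with 6 genes marked. Gldn at -9.17 stands apart from the next falls, Olr1 at -7.18, Acan at -6.67 and Mcam at -6.63, and mirrors Lum at 9.12 and Dcn at 8.24.

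The gap to the next fall was also seen in single arrays, which are the values that chose the gene and so no separate support. When each POG array was set against each DMSO array, Gldn had the largest fall in 6 of 6 pairs, from -9.47 (DMSO replicate 3, POG replicate 1) to -8.90 (DMSO replicate 1, POG replicate 2). The next largest fall in these pairs was Acan or Olr1 and ran from -7.76 to -6.76, so the ranges did not meet. The order of Gldn and Lum by size did change with the arrays. Gldn had the larger difference in 3 of 6 pairs, both pairs with DMSO replicate 1 among them, and Lum in the other 3, both with DMSO replicate 2 among them. Lum had a higher signal in DMSO replicate 1 (6.70) than in replicates 2 and 3 (5.44 and 5.74).

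**Figure D3:**
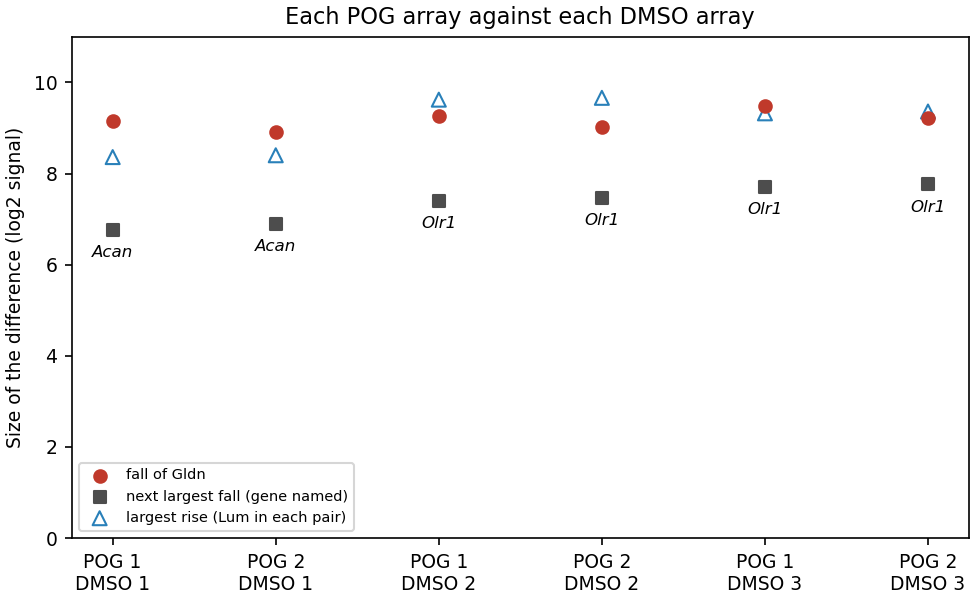
Size of the log2 difference in each of the 6 pairs of a POG and a DMSO array, for the fall of Gldn (circles), the next largest fall (squares, with the gene) and the largest rise (triangles, Lum in each pair). The Gldn falls lie between 8.90 and 9.47 and above the next falls in each pair, whereas Lum is larger than Gldn in 3 of 6.

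The genes whose profiles were most like that of Gldn were found by the Euclidean distance over the 5 arrays after each profile was centred on its own mean, and they are a description of that measure. The nearest was Olr1, the lectin-like receptor for oxidized low-density lipoprotein, at a distance of 2.33. It read 10.14, 11.18 and 11.48 with DMSO and 3.78 and 3.72 with POG, so that its DMSO arrays were more spread (SD 0.70) than those of Gldn. Mcam, the adhesion molecule CD146, followed at 2.80 and Acan, the cartilage proteoglycan aggrecan, at 2.81. Mcam read 12.86, 12.89 and 13.06 with DMSO and 6.33 and 6.29 with POG. Acan read 18.31, 18.21 and 17.93 with DMSO and 11.55 and 11.42 with POG. In all 3 genes the groups did not overlap.

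Among named probe sets, Myh11, the smooth muscle myosin heavy chain, came next at a distance of 3.61 and Ptgs2, the inducible cyclooxygenase, at 3.85. The 5 probe sets that fell most after Gldn were Olr1, Acan, Mcam and 2 unnamed ones, at -6.39 and -6.15. Unnamed probe sets were left out of the ranking by distance, and these 2 lay at 3.05 and 3.34 from Gldn. Nearest to the mirror image of the Gldn profile were Lum (0.84), Dcn (1.07), Lgals9 (1.62), Il1rn (2.17) and Ndufa4l2 (2.77). Lum and Dcn encode small leucine-rich proteoglycans that bind collagen fibrils. With 2 groups, such a distance mostly ranks genes by the size of their difference, and nothing on shared control follows from it.

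For genes that work with gliomedin at the node, the share that changed was near that of all probe sets. Limma's two-sided moderated test was used for each probe set, with p-values adjusted by Benjamini-Hochberg across the whole table and called under 0.05. By that test POG-treated cells had a higher signal in 26.7% of the table and a lower one in 19.6% (46.3% in either direction), and the lists below are read against these shares. Of 24 symbols for node of Ranvier and axoglial adhesion genes (2 of them names of the same gene), 10 had a named probe set, of which 2 rose, 3 fell and 5 did not pass, so that 5 of 10 were called against a background of 46.3%. The median difference was -0.20, against 0.11 over all probe sets. The partners that bind gliomedin directly, Nfasc and Nrcam, had no named probe set and were not analysed here.

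Epb41l3, the paranodal membrane skeleton protein 4.1B, read 7.66, 7.25 and 7.28 with DMSO and 10.88 and 10.92 with POG. It rose by 3.50 ± 0.19 (SE, limma adjusted p = 5e-07). Ank3, which encodes ankyrin-G, the anchor of nodal sodium channels and neurofascin, read 6.31, 6.17 and 6.85 with DMSO and 8.78 and 8.66 with POG. Its rise was 2.28 ± 0.22 (limma adjusted p = 2.94e-05). In both genes all POG arrays lay above all DMSO arrays, opposite to Gldn.

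Dag1, the matrix receptor dystroglycan of Schwann cell microvilli and many other cells, read 15.02, 15.13 and 14.97 with DMSO and 13.97 and 13.64 with POG. It fell by 1.23 (SE 0.18, limma adjusted p = 0.000439). Its cytoskeletal linker utrophin, Utrn, fell by 1.12 (SE 0.18, limma adjusted p = 0.000896). Of the ezrin, radixin and moesin proteins, which tie the membrane of microvilli to actin, Msn fell by 0.76 (limma adjusted p = 0.00487), whereas Rdx was at 0.29 (adjusted p = 0.17, and 0.0328 with the methods' t-test) and Ezr at 0.31 (adjusted p = 0.247). The sodium channel genes Scn8a (-0.50) and Scn2b (0.11) and the juxtaparanodal Cntn2 (-0.51) did not pass, and their means, between 4.18 and 5.44 in both groups, lay under the lower quartile of all signals.

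Genes for proteases that can shed gliomedin, for related proteases and for an enhancer of BMP1 activity were lower or did not pass. Of 9 listed, 7 had a named probe set, of which 4 fell and 0 rose, with a median of -0.71 against 0.11 over all probe sets and a background of 19.6% lower. Tll1, a tolloid-like metalloprotease of the BMP1 family, moved most. It read 12.85, 12.95 and 13.15 with DMSO and 9.28 and 9.59 with POG, so that all POG arrays lay more than 3 below every DMSO array, and it fell by 3.55 (SE 0.18, limma adjusted p = 4.53e-07).

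Furin, the proprotein convertase, read 13.64, 13.79 and 13.53 with DMSO and 12.51 and 12.36 with POG. It fell by 1.22 (SE 0.17, limma adjusted p = 0.000395). Bmp1 itself read 11.56, 11.67 and 11.60 with DMSO and 10.84 and 10.96 with POG, and fell by 0.71 (SE 0.16, limma adjusted p = 0.00658). In both genes the groups did not overlap. The convertase Pcsk5 fell by 0.76 (SE 0.25, limma adjusted p = 0.0322), and Pcsk6 (-0.19), Pcsk7 (0.50) and Pcolce (0.22), which encodes an enhancer of BMP1 activity, did not pass. Without POG replicate 1 only Tll1 and Furin still passed (Bmp1 adjusted p = 0.0507, Pcsk5 adjusted p = 0.0565). Pcsk5 also did not pass without DMSO replicate 2 (adjusted p = 0.0941) or POG replicate 2 (adjusted p = 0.225). Without DMSO replicate 1, Pcsk6 (-0.555, adjusted p = 0.0381) and Pcsk7 (0.67, adjusted p = 0.0284) passed.

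Of 12 listed proteins with an olfactomedin domain beside gliomedin, 7 had a named probe set, of which 1 rose, 2 fell and 4 did not pass. These 3 of 7 were near the background of 46.3%, and the median of 0.06 was near the 0.11 of all probe sets. Olfml2b, which encodes the matrix-binding photomedin-2, read 15.07, 15.07 and 15.12 with DMSO and 11.99 and 11.78 with POG, and fell by 3.20 (SE 0.17, limma adjusted p = 4.70e-07). Its close relative Olfml2a was at -0.26 (limma adjusted p = 0.416) from low means of 4.65 and 4.39. Olfm2, a secreted glycoprotein, fell by 2.30 (SE 0.21, limma adjusted p = 2.16e-05), with all signals under the lower quartile of 6.17.

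Olfml3, another secreted family member, went the other way. From a mean of 13.16 ± 0.48 (SD) with DMSO to one of 15.05 with POG, with no overlap of the arrays, it rose by 1.90 ± 0.26 (limma adjusted p = 0.000281). Olfm1 (0.48) and the adhesion receptors Adgrl2 (0.23) and Adgrl3 (0.06) did not pass. Olfm1 passed without POG replicate 1 (adjusted p = 0.047) and when only probe sets with a mean signal at or above the median were tested, called brighter here (adjusted p = 0.0322). The fall of Gldn was 5.97 larger in size than that of Olfml2b, the largest fall among the 7 measured. Gldn was chosen as the lowest difference on the arrays, so that choice fixed its lead in advance.

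Among membrane proteins that, like gliomedin, carry a collagen domain, 3 of 10 listed had a named probe set, and all 3 are scavenger receptors. All 3 rose, against a background of 26.7% higher. Colec12, a scavenger receptor with a C-type lectin domain, read 6.87, 7.12 and 6.78 with DMSO and 9.80 and 10.03 with POG, a rise of 2.99 ± 0.18 (limma adjusted p = 1.27e-06). Scara5, a ferritin receptor, rose by 1.12 ± 0.20 and Scara3 by 0.88 ± 0.19 (limma adjusted p = 0.00153 and 0.00401).

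Proteoglycans, several of which carry the heparan sulfate chains that gliomedin binds, were mostly lower. Of 15 listed, 10 had a named probe set, of which 8 fell and 2 rose, against backgrounds of 19.6% and 26.7%. The median was -1.02, against 0.11 over all probe sets. All 4 syndecans, transmembrane heparan sulfate proteoglycans, fell. Sdc3 read 9.71, 9.49 and 9.59 with DMSO and 7.87 and 7.91 with POG, and fell by 1.71 (SE 0.17, limma adjusted p = 3.34e-05). The others were Sdc2 at -1.65, Sdc4 at -1.27 and Sdc1 at -0.83 (limma adjusted p = 3.23e-05, 0.000294 and 0.00548).

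The glypicans, which are held in the membrane by a lipid anchor, were split. Gpc4 (-1.30) and Gpc1 (means of 13.91 and 12.91) fell (limma adjusted p = 0.000446 and 0.00142), whereas Gpc3 rose by 2.12 ± 0.20 (limma adjusted p = 2.35e-05) from a low DMSO mean of 4.52. Of the matrix proteoglycans, agrin, Agrn (-1.04), and Col18a1 (-0.57) fell (limma adjusted p = 0.0103 and 0.0438), and versican, Vcan, a chondroitin sulfate proteoglycan, rose by 2.02 ± 0.18 (limma adjusted p = 1.77e-05). The Agrn means, 5.91 with DMSO and 4.87 with POG, lay under the lower quartile of all signals. The list count was 7 without POG replicate 1, where Agrn (adjusted p = 0.117), Sdc1 (0.0608) and Col18a1 (0.123) did not pass. Col18a1 also did not pass without DMSO replicate 1 (0.107), DMSO replicate 3 (0.0865) or POG replicate 2 (0.185). For each of the 5 lists, neither median centring nor quantile normalization changed the count in either direction.

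**Figure D4:**
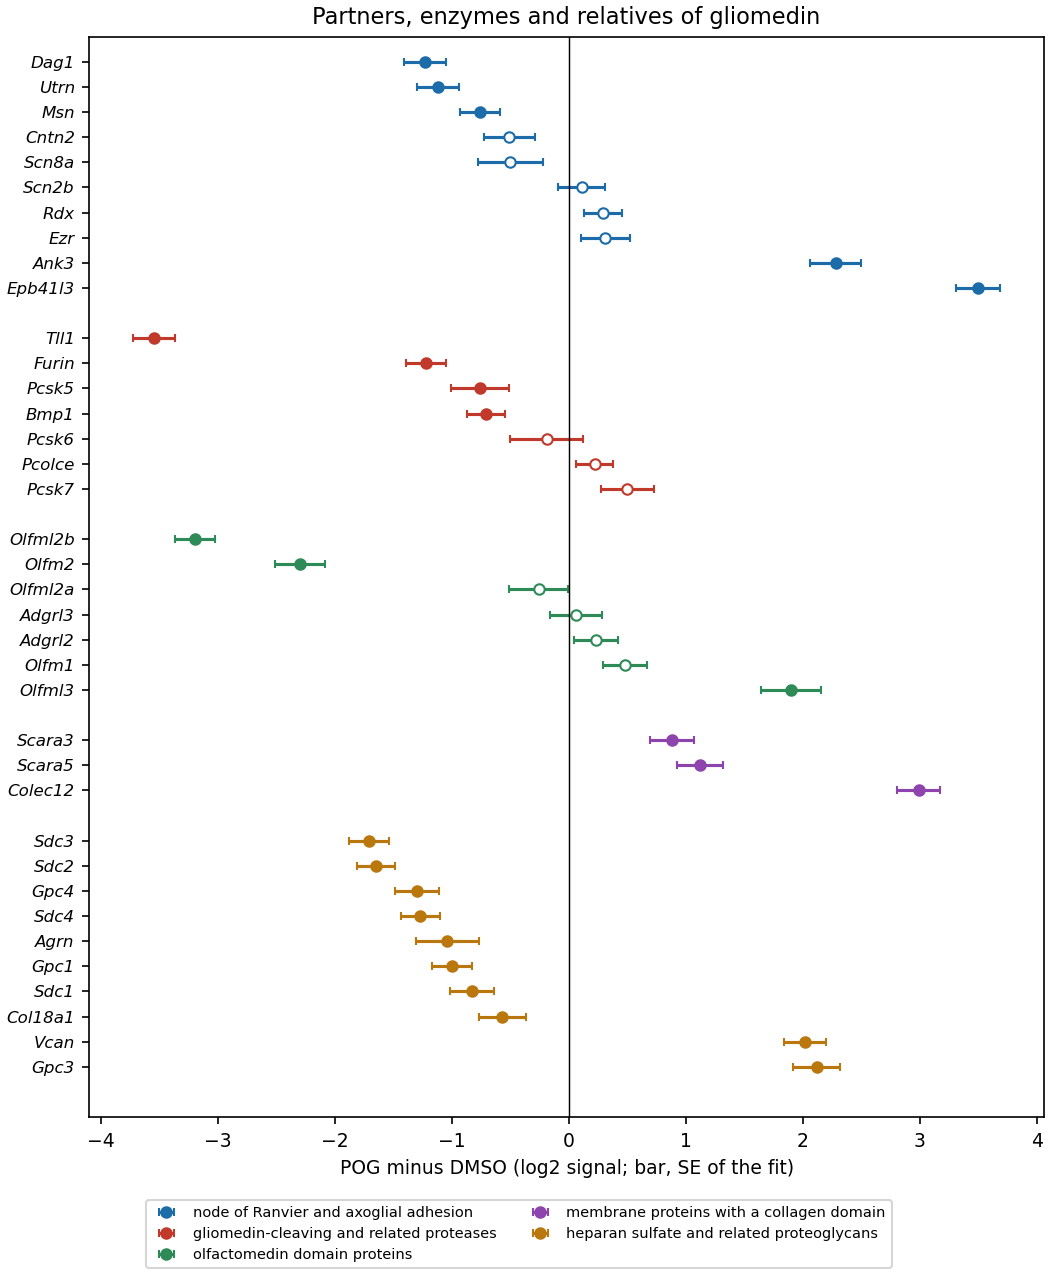
POG minus DMSO difference in log2 signal, with the SE of the fit, for the 37 measured genes of the 5 lists, coloured by list, with filled circles for genes past the limma threshold. The 37 genes lie between -3.55 (Tll1) and 3.50 (Epb41l3), and 17 fell, 8 rose and 12 did not pass.

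Taken as a group, the measured genes that lie beside Gldn on rat chromosome 8 did not fall with it. Of the 15 protein-coding genes on each side in the order of the GRCr8 gene table, 14 had a named probe set, of which 2 rose and 1 fell, against backgrounds of 26.7% and 19.6%. The median of the 14 was 0.10, next to 0.11 over all probe sets. The adjoining gene on one side, Cyp19a1, which encodes aromatase, read 5.15, 5.04 and 5.26 with DMSO and 5.11 and 5.29 with POG, so its groups overlapped at a signal under the lower quartile. The adjoining gene on the other side, Dmxl2, had no named probe set. The nearest measured gene on that side was Cib2, which passed as lower with a difference of -0.52. Elmod1, Rab39a and Hykk also had DMSO means under the lower quartile (5.28, 4.84 and 4.87). At such signals a fall as large as that of Gldn could not be seen.

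Crabp1, which encodes a retinoic acid binding protein and is the eighth gene beyond Gldn, was the neighbour with the widest difference. It read 6.48, 6.68 and 6.88 with DMSO and 9.40 and 9.25 with POG, and rose by 2.65 ± 0.18 (limma adjusted p = 3.03e-06). The DNA damage kinase Atm rose by 0.61 ± 0.18 (limma adjusted p = 0.0183) and Cib2, a calcium-binding protein, fell by 0.52 (SE 0.17, limma adjusted p = 0.0334). With either POG replicate left out, Crabp1 alone passed (Atm adjusted p = 0.0881 without POG replicate 1 and 0.0777 without POG replicate 2, Cib2 adjusted p = 0.203 and 0.0526). Atm also did not pass after quantile normalization (adjusted p = 0.0744) or without DMSO replicate 2 (0.0634), nor did Cib2 without DMSO replicate 1 (0.0604) or DMSO replicate 2 (0.0833) or with trend and robust moderation (0.0766). Elmod1 passed without DMSO replicate 2 (0.0272), and Psma4, a proteasome subunit at 0.44, with trend and robust moderation (0.0148) and among brighter probe sets (0.0308).

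**Figure D5:**
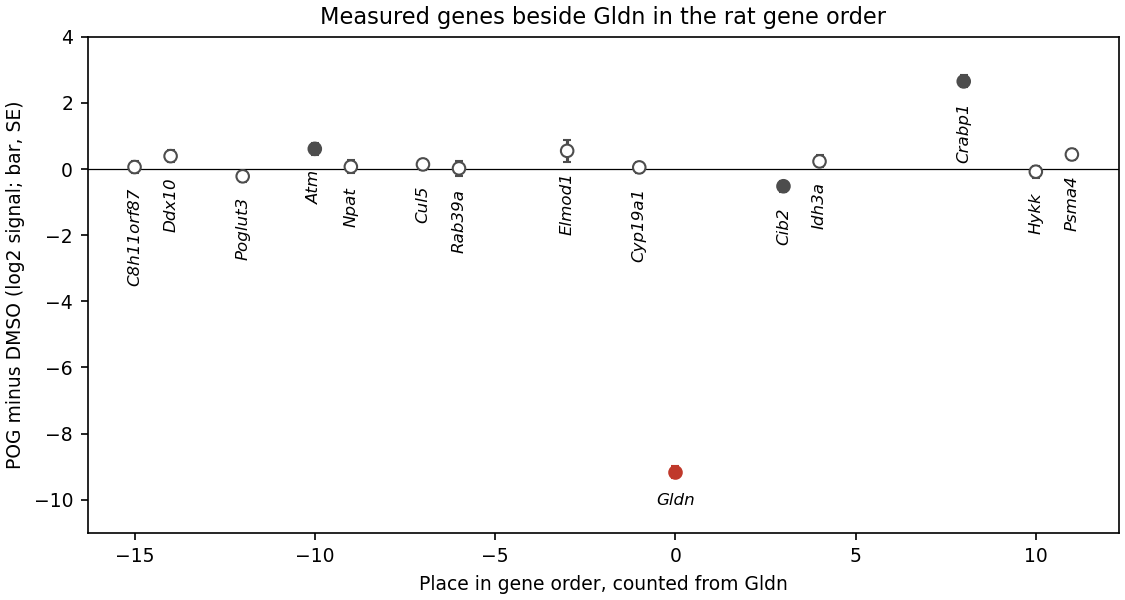
POG minus DMSO difference in log2 signal, with the SE of the fit, for Gldn (red) and the 14 measured genes among the 15 on each side, by their place in the gene order, with filled circles for genes past the limma threshold. The neighbours lie between -0.52 (Cib2) and 2.65 (Crabp1), and Gldn lies at -9.17.

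Markers of other cells were set beside the Gldn result, and their counts are read against 26.7% higher and 19.6% lower over all probe sets. Of 20 Schwann cell and peripheral myelin markers, 5 had a named probe set, and the defining genes Sox10 and Mbp had none. Their mean log2 signal per array ran from 8.36 to 8.75 with DMSO and from 8.78 to 8.83 with POG, while Gldn went from 16.70 to 7.53. Mag, a glycoprotein of myelin, was at 3.53 and 3.66 (limma adjusted p = 0.584), and Pmp22, which fibroblasts also express, at 16.75 and 16.91 (adjusted p = 0.448). S100b rose by 1.18 ± 0.20 and Cnp by 1.25 ± 0.30, and Egr2, a myelination factor that is also an immediate early gene, fell by 1.67 (limma adjusted p = 0.00106, 0.00797 and 0.000597). Cnp did not pass without POG replicate 2 (adjusted p = 0.0788).

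Smooth muscle markers moved in the direction of Gldn. Of 12 listed, 10 had a named probe set, of which 8 fell and 0 rose, against a background of 19.6% lower. Their mean log2 signal per array ran from 14.16 to 14.26 with DMSO and from 11.26 to 11.50 with POG. Of 6 measured cartilage markers 2 fell, Acan and Col11a1, and 1 rose (8.30 to 8.59 with DMSO, 7.22 to 7.35 with POG), a shift of the mean that Acan (-6.67) carried, since the other 5 lay between -0.65 and 1.25. The 1 measured skeletal muscle marker, Acta1, fell. Of 10 leukocyte markers, 5 had a named probe set, and Ptprc had none. All 5 rose, against a background of 26.7% higher (mean signals up to 5.43 with DMSO, from 6.59 to 7.05 with POG). Among them Fcer1g stayed under the lower quartile in both groups (means of 3.55 and 4.77). Of 3 measured endothelial markers 1 rose and 1 fell (4.94 to 5.31 with DMSO, 5.10 to 5.17 with POG), and 0 of 10 epithelial markers had a named probe set. The part of these cells in the Gldn difference was not tested. Of 16 tendon markers, 11 had a named probe set, of which 5 rose and 0 fell, against backgrounds of 26.7% and 19.6%. In 6 the POG arrays all lay above the DMSO arrays and in 3 all below, against 38.3% and 28.5% of all probe sets. These 3, Col3a1 (-0.39), Tnc (-0.35) and Scx (-0.31), did not pass. Comp, which rose, had means of 3.86 and 4.82, under the lower quartile. Mean signals over the 11 were 11.90 to 12.01 with DMSO and 14.38 to 14.40 with POG. Lum (9.12), Dcn (8.24) and Fmod (6.57) carried most of this shift, and the median difference of the list was 0.45. Col1a1 had means of 19.39 and 19.24, but Scx, the tendon transcription factor, was under the lower quartile in both groups (6.08 and 5.77), and Tnmd and Mkx had no named probe set.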

How the data were processed

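Expression was measured on Affymetrix rat arrays in 3 DMSO-treated and 2 POG-treated rTSPC samples. The authors deposited log2 signals per probe set, made by robust multi-array average (RMA) with default settings and global scaling; no version of RMA stands in the submitters' processing notes, and the genome build and the rule that chose the probe sets were not given in the sources used here. Both deposited tables held the same values (largest difference 0), which ran from 2.98 to 19.47, with array medians of 8.36 to 8.52. The number of arrays limits the precision. The platform annotation named 7240 probe sets and left 2901 unnamed, and 0 symbols changed when checked by gene identifier against a GRCr8 gene table. That table was used for names and gene order only.

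Groups were taken from the sample titles. All probe sets were fitted with limma 3.58.1 in R 4.3.3, which was tested on simulated data. Differences are POG minus DMSO. Gldn and the lists were chosen with earlier results of these data known. Genes were named by rule: Gldn, the 5 next falls, the 5 nearest and 5 nearest mirrored profiles, all measured members of the partner lists, the neighbours and the Schwann cell markers; other genes were chosen after their values were seen. Alternatives were the other table, quantile normalization, median centring, group medians, the replicate block, each array left out, brighter probe sets, trend and robust moderation, array weights and the methods' t-test. The study's thresholds (unadjusted p under 0.05, over 1.5-fold) were also used, but on the limma p-values and not on those of the t-test.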

Additional observations from a re-analysis of the deposited data

How the results depend on the processing

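The Gldn difference was -9.26 after either quantile normalization or centring on the median, -9.145 between group medians, and between -9.297 and -9.047 with single arrays removed. Gldn remained the lowest of all probe sets under each alternative run for it. These alternatives used the same arrays that chose the gene, so this rank is no separate support. The count of probe sets past the threshold, 4694, was 2900 to 4347 with an array left out (lowest without POG replicate 2, where the spread of the lone POG array is taken from the DMSO arrays), 2894 of the 5071 brighter probe sets tested, and 2078 with the methods' t-test after adjustment. The protease list had 2 to 6 members past the threshold with an array left out. The collagen-domain list had 1 with the methods' t-test, and no member left among the brighter probe sets. The neighbours had 1 to 3 with an array left out, 1 among the brighter probe sets (6 tested) and 1 with the methods' t-test. The replicate block gave -9.085 for Gldn and 4193 probe sets, and Col18a1 and Cib2 did not pass with it. With the methods' t-test after adjustment, Pcsk5, Olfml3, Scara3, Scara5, Agrn, Sdc1, Col18a1, Atm, Cib2, Egr2 and Cnp did not pass, and Rdx did. At the study's thresholds, set on the limma fit, Col18a1 and Cib2 did not pass. Same-numbered arrays had deviations from their group means that correlated at 0.0042 and 0.0052, and the labels do not say that a number marks a shared origin.

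Of 66 named genes beside Gldn, no change past the threshold turned its sign. Signs turned for 10 that did not pass: Scn2b (-0.016), Npat (-0.004), Rab39a (-0.019), Cyp19a1 (-0.038) and C8h11orf87 (-0.114) after quantile normalization; Adgrl3 (-0.022), Npat (-0.018), Rab39a (-0.063), Cyp19a1 (-0.037) and C8h11orf87 (-0.022) after centring; and Rab39a with the replicate block (-0.195) and array weights (-0.014). With an array left out the ranges were -0.16 to 0.37 (Scn2b), -0.555 to 0.04 (Pcsk6), -0.14 to 0.27 (Adgrl3), -0.003 to 0.467 (Adgrl2), 0 to 0.13 (C8h11orf87), -0.067 to 0.203 (Npat), -0.195 to 0.19 (Rab39a), -0.04 to 0.14 (Cyp19a1), -0.247 to 0.083 (Hykk) and -0.04 to 0.30 (Mag). The cause was not tested.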
